A study of Mus musculus with 31 samples.

Results

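The genes described here are 33 markers of lymphocytes and of the lymph node: 11 of B cells, 12 of T cells, 8 of homing and of the node's own stroma, vessels and sinuses, and 2 of leukocytes in general. They were chosen by symbol, and a gene was measured where a RefSeq transcript accession in the count tables maps to that symbol on mm10. Of the 33, 27 have such a row among the 17334 rows of the tables: 9 B cell genes, 10 T cell genes, 7 homing and node genes, and Coro1a. Cd22, Fcer2a, Cd6, Cd8a, Ccl21a and Ptprc were not analysed here. Each of the 27 has 1 row.

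RNA-seq was done on interscapular brown fat (iBAT), inguinal white fat (iWAT) and epididymal white fat (eWAT) of male C57BL/6J mice aged 8 weeks. All mice, controls included, first spent 8 days at thermoneutrality. The day 0 groups were killed then, without cold, and the other groups after 2 or 4 days at 4 °C. There were 3, 4 and 3 iBAT libraries at days 0, 2 and 4, then 4, 3 and 5 iWAT libraries, and 3, 3 and 3 eWAT libraries, named here by depot and label number. The labels do not say whether each library is 1 mouse, nor whether lymph nodes were removed at dissection. Where libraries are not separate animals, the p-values measure only the spread between libraries.

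B cells carry an antigen receptor whose signal passes through the paired chains Cd79a and Cd79b, and T cells one whose signal passes through the Cd3 chains. Both cell types enter a lymph node from blood through high endothelial venules. Inside it, the chemokines Ccl19 and Ccl21 draw Ccr7-bearing T cells and dendritic cells to the T zone, while Cxcl13 draws Cxcr5-bearing B cells to follicles, and lymphotoxin, which includes the Ltb chain, maintains the stroma that makes these chemokines. In the mouse the inguinal (subiliac) lymph node lies within the inguinal fat pad.

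Total counts per library lay between 1577168 and 3756389 in iBAT, between 1502823 and 5527239 in iWAT, and between 3193060 and 4033224 in eWAT. In iBAT548 and iBAT539 only 57 and 159 features have a count of 1, so that a missing value there is not shown to be a count of 0. iBAT548, a day 4 library, has no counts for any of the 27 genes. The labelled tissues were checked against markers: the summed level of 6 brown adipocyte genes was 8781 to 45580 CPM (counts per 1000000 counts of the library's effective size) in the iBAT libraries, 86.8 to 10610 in the iWAT libraries and 5.2 to 364 in the eWAT libraries. In iWAT555, a day 4 library, 12 epididymis and testis genes summed to 4526 CPM, against 2.22 to 777 in the other 11 iWAT libraries and 117 to 33350 in eWAT, and its adipocyte genes were the lowest of all libraries, at 7927 CPM. This library also has the highest level of several genes below, and the part of such tissue in those levels was not tested.

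Of the 27 genes, 19 have a promoter in the RefSeq table (assembly GRCm38.p6, the same build as mm10), taken as 250 bases before to 50 bases after the transcription start. As examples, 5 of these promoters are shown, of B cell, T cell and lymphotoxin genes, with matches to the motifs searched in capitals. A link between these sequences and the levels of the genes was not tested. They lie at chr7:24897247-24897546 (+ strand, Cd79a), chr7:45238790-45239089 (- strand, Cd37), chr9:44980382-44980681 (- strand, Cd3g), chr9:44981536-44981835 (+ strand, Cd3d) and chr17:35194257-35194556 (+ strand, Ltb), each written 5′ to 3′ on its gene's strand. Where a gene has several starts in the table, the first listed was taken.
Cd79a: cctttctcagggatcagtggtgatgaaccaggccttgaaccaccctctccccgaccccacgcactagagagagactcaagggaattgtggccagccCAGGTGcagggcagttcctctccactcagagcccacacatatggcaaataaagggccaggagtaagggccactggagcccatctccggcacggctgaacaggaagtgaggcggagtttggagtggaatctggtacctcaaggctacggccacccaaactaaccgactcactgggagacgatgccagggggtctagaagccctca
Cd37: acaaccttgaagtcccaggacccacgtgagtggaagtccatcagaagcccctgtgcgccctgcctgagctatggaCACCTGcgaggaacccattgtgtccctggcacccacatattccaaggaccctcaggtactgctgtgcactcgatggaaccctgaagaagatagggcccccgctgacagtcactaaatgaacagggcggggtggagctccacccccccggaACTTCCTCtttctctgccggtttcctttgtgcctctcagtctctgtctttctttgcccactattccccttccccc
Cd3g: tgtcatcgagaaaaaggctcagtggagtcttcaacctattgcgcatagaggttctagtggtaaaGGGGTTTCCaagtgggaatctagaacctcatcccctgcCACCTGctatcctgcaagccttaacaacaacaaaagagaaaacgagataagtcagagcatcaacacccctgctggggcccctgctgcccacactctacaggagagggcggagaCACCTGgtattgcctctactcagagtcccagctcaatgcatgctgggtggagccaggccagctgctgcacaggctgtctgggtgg
Cd3d: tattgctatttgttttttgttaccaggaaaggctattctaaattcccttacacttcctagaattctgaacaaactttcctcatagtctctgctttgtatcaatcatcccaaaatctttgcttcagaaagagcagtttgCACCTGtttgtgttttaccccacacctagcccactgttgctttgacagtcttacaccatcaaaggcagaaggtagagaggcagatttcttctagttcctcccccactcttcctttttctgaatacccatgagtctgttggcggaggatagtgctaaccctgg
Ltb: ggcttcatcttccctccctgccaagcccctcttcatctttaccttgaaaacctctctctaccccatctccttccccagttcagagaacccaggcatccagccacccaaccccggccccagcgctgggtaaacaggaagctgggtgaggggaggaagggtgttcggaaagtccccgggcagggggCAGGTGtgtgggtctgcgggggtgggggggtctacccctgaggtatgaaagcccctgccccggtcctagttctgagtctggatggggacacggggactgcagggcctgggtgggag
The capitals mark CAGGTG, an E-box that E proteins such as E2A can bind, or its reverse complement, in all 5 sequences. Of the 19 promoters, 11 hold it, so the 5 examples are not typical of the rest. In Cd37 they also mark GAGGAAGT, read by the Ets factors PU.1 and Spi-B, on the reverse strand, and in Cd3g GGGNTTTCC, a form of the NF-kB site.

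Both strands were searched for 6 motifs. CAGGTG was present in 11 of the 19 promoters (57.9%) and in 20.2% of the 32851 promoters of the same length in the table: those of Zap70, Fcmr, Cr2, Lck, Cd79a, Cd37, Cd3g, Cd3d, Cd3e, Ltb and Cd5. GAGGAAGT was in 2 of 19 (Cd37 and Cd5) and in 3.2% of the table's promoters. GGGNTTTCC was in 2 (Cd3g and Madcam1) and in 1.68%, CCCNNGGG, the core of the early B cell factor site, in 2 (Spib and Madcam1) and in 13.7%, and TGTGGT, the Runx motif, in 2 (Lck and Lat) and in 16.8%. The octamer ATGCAAAT was in none of the 19 windows and in 1.74% of the table's. The table's shares are over all starts used, with several for some genes, while each member enters with a single start. Promoters of a chromosome that holds none of these genes were left out of the table's shares. A match is a string of letters in this window, not a shown binding site, and no test was made of these shares.

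In every role iWAT lay above both other depots. Summed over the 9 B cell genes, the level was 2686 ± 842 CPM (SD, n = 4) in iWAT at day 0, 15.6 ± 1.11 (n = 3) in iBAT and 32.4 ± 19.0 (n = 3) in eWAT. For the 10 T cell genes it was 872 ± 517.9, 12.3 ± 7.92 and 10.4 ± 3.51 CPM. The 7 homing and node genes gave 1146 ± 109, 8.13 ± 1.91 and 20.4 ± 14.0 CPM.

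At every day the ranges of iWAT and of the other depots were apart in each role. The lowest B cell sum in any of the 12 iWAT libraries was 896 CPM (iWAT550), against a highest of 57.7 in eWAT and 20.4 in iBAT. The lowest T cell sum in iWAT was 272 CPM (iWAT553) and the highest elsewhere 25.8 (eWAT551), and for the homing and node genes these were 399 (iWAT553) and 45.4 (eWAT539). Together the 27 genes took between 0.179% and 0.79% of all counts in iWAT, between 0.00571% and 0.0158% in eWAT, and at most 0.00573% in iBAT. In a bulk sample, fewer cells of a type and less RNA per cell cannot be told apart.

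**Figure D1:**
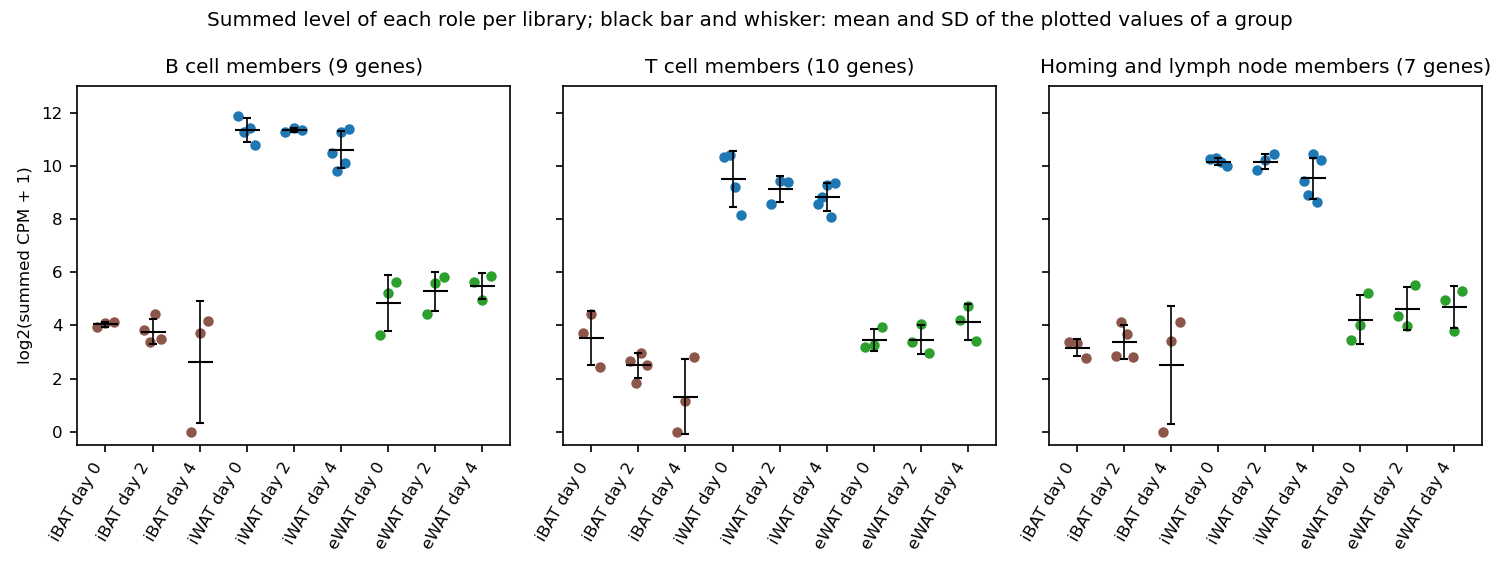
Summed CPM of the B cell, T cell, and homing and node genes in each of the 31 libraries, on a log2(CPM + 1) scale, by depot and day. Each point is a library, and the black bar and whisker are the mean and SD of the plotted values; the 12 iWAT points lie above all others in every panel, and the point at 0 is iBAT548.

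Differences were tested with edgeR's quasi-likelihood F-test in 1 fit of the 31 libraries over 11041 genes, at a Benjamini-Hochberg adjusted p of 0.05. A total of 25 of the 27 genes passed the filter on low counts; Lck, with 3 counts in all libraries together, and Lat, with 51, did not. At day 0, 25 of 25 were higher in iWAT than in iBAT, where 9.77% of all genes tested were, and 24 of 25 were higher in iWAT than in eWAT, against 5.02%. At day 2 the counts were 25 and 24 of 25, against 9.74% and 5.03%. At day 4 they were 24 and 23, against 11.7% and 4.49%.

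None of the 25 was lower in iWAT in these 6 comparisons. Most of these genes passed the filter through their counts in iWAT, so the counts describe the list and do not support the difference. The median log2 difference of the 25 at day 0 was 6.81 against iBAT (6.71 with the genes that have no count in iBAT set at their bound) and 6.45 against eWAT, where the medians of all genes were 0.18 and -0.04. At day 2 the medians of the 25 were 8.14 (7.15 at the bounds) and 5.93 (5.87), and at day 4 they were 7.46 (7.42) and 5.48 (5.39).

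**Figure D2:**
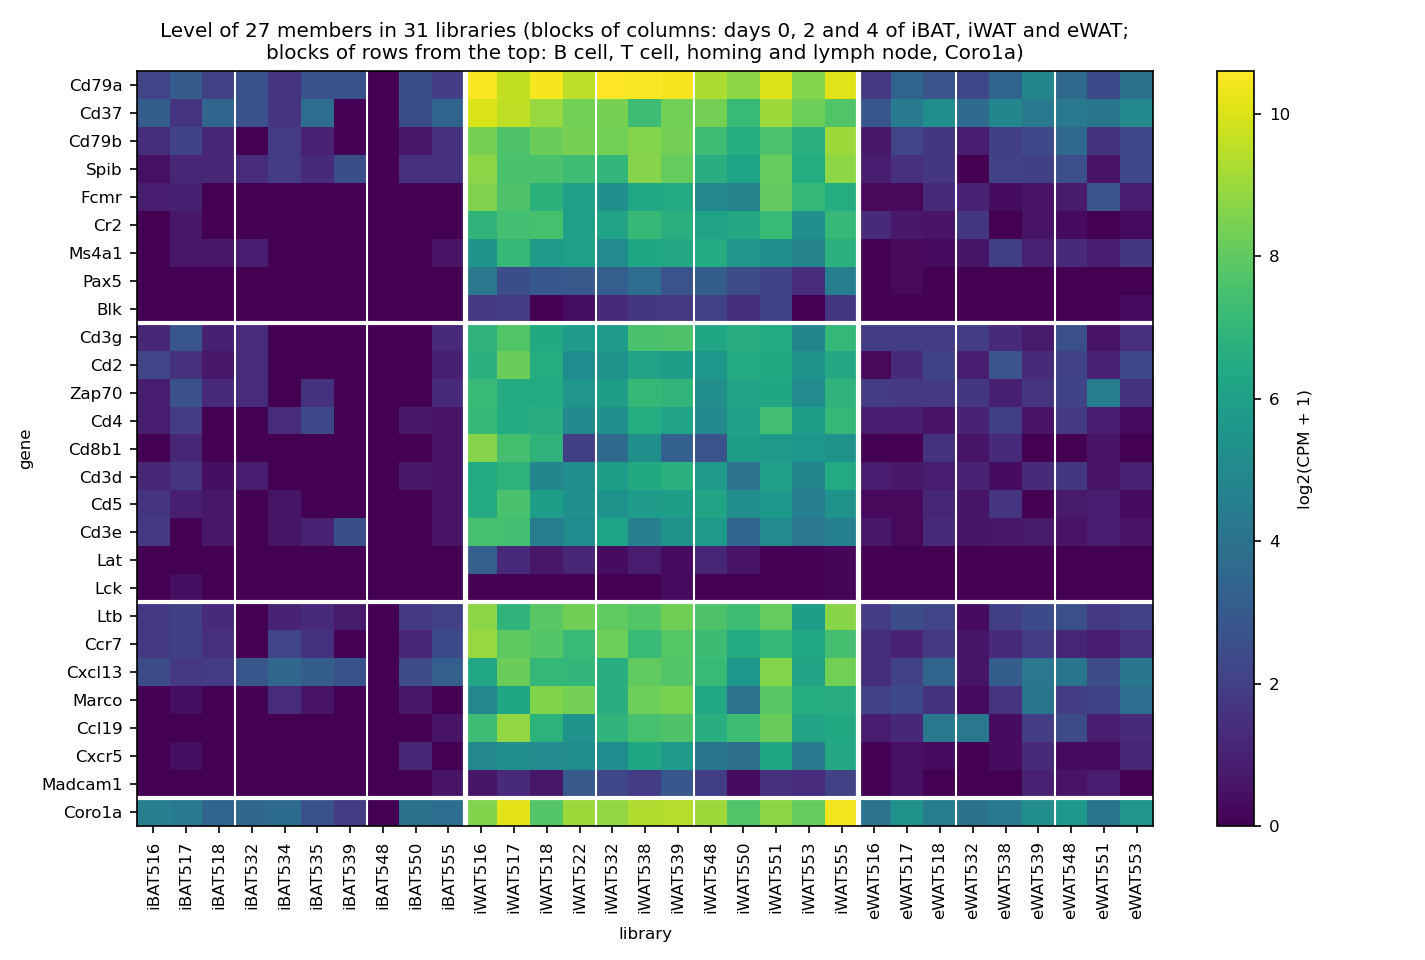
Level of the 27 genes with a row (rows, grouped by role) in the 31 libraries (columns, grouped by depot and day), as log2(CPM + 1). The iWAT columns are mostly bright outside the rows of Lck, Lat, Blk, Madcam1 and Pax5, but Cd8b1 is dim in some of them, down to 2.95 CPM in iWAT522. The column of iBAT548 is 0 throughout.

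Of the 27 genes, Cd79a had the highest level per length in iWAT, 710 CPM per kb of transcript (mean of 12 libraries). Among the B cell genes it was followed by Cd37 at 336 and Cd79b at 231. The lowest of the 9 were Ms4a1 (21.5), Cr2 (17.7), Pax5 (1.05) and Blk (0.786 CPM per kb). Cd79a lies at chr7:24897497-24901858, Cd37 at chr7:45233632-45239340, Cd79b at chr11:106311341-106314562 and Spib at chr7:44525995-44532087.

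Cd79a, the signalling chain whose promoter is shown above, had 1448, 781, 1408 and 744 CPM in the 4 iWAT libraries of day 0 (iWAT516, iWAT517, iWAT518 and iWAT522, the order used throughout). At day 2 it had 1550, 1504 and 1388 (iWAT532, iWAT538 and iWAT539), while its day 4 levels, in iWAT548, iWAT550, iWAT551, then iWAT553 and iWAT555, were 629.6, 428, 1045, 392 and 1101. Its lowest, median and highest levels were 0, 4.29 and 7.27 CPM over the 10 iBAT libraries and 2.4, 9.71 and 28.2 over the 9 eWAT libraries. No library of iBAT or eWAT came near the lowest of iWAT, and at day 0 the log2 difference was 7.84 (SE 0.91, adjusted p = 2.25e-06) from iBAT and 7.50 (SE 0.89, adjusted p = 6.23e-06) from eWAT.

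Cd79b, its partner chain, stood at 339.5, 207, 294 and 340.5 CPM at day 0 in iWAT. The day 2 libraries had 323, 397 and 336 CPM, and those of day 4 had 155, 94.4, 190.2, 104 and 533.5. The last, iWAT555, is far above the other 4 of its group. Over iBAT the lowest, median and highest levels were 0, 1.08 and 3.33 CPM and over eWAT 0.601, 2.94 and 11.2, and the day 0 differences were 7.14 (SE 0.95, adjusted p = 1.09e-05) and 7.09 (SE 0.94, adjusted p = 2.04e-05). Per 100 counts of Cd79a there were 18.2 to 48.5 counts of Cd79b in the iWAT libraries, with a median of 24.4. The 2 highest of these ratios, 48.5 in iWAT555 and 45.7 in iWAT522, lay apart from the other 10, at 26.6 or less.

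Cd37, a tetraspanin of mature B cells that other leukocytes also carry, had 1022, 769, 493 and 319 CPM in iWAT at day 0. At day 2 it had 338, 159 and 324, and at day 4 it had 336, 143, 521, 306 and 212. In eWAT it was the highest of the B cell genes, with a lowest, median and highest level of 6.21, 18.4 and 36.5 CPM, and in iBAT these were 0, 5.13 and 12.6. Its difference from eWAT at day 0, 4.96 (SE 0.95, adjusted p = 0.00114), was the smallest among the B cell genes, and that from iBAT was 6.61 (SE 1.04, adjusted p = 6.47e-05).

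Spib, an Ets transcription factor of B cells, had 431, 185, 188 and 157 CPM at day 0, with iWAT516 far above the others. Its day 2 levels were 127, 406 and 276, and its day 4 levels 98.4, 70, 276, 93.8 and 443. In iBAT the range was 0 to 4.76 and in eWAT 0 to 5.04 CPM, with medians of 1.5 and 2.2. The day 0 differences were 7.91 (SE 1.09, adjusted p = 1.4e-05) and 7.24 (SE 1.03, adjusted p = 4.3e-05).

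The other 5 B cell genes had lower levels. Ms4a1, which encodes CD20, ran from 25.7 to 134 CPM in iWAT, and its 36 counts in eWAT and 6 in iBAT gave at most 2.94 and 0.766 CPM. Cr2, the complement receptor of B cells and follicular dendritic cells, ran from 39.3 to 184 CPM in iWAT and was counted 25 times in eWAT and 2 times in iBAT. Fcmr, the receptor for the constant part of IgM, ran from 26 to 369 CPM in iWAT, from 0.2 to 5.85 in eWAT and from 0 to 0.909 in iBAT.

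Pax5, the factor that fixes B cell identity, had counts in all 12 iWAT libraries (1.51 to 21.9 CPM), 1 count in eWAT and none in iBAT. At day 0 it was at least 27.3-fold higher in iWAT than in iBAT, with the iBAT level set at a floor of 3 counts over its group. Blk, a kinase of B cells, had counts in 10 of 12 iWAT libraries, 0 to 3.33 CPM, 1 count in eWAT and none in iBAT, and was at least 4.19-fold higher than in iBAT at day 0. At day 4 Blk missed the threshold against eWAT (adjusted p = 0.0575).

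Among the T cell genes, Cd3g had the highest level per length in iWAT, 108 CPM per kb, then Cd2 with 75.9 and Cd8b1 with 54.2, while Cd3d, Cd3e, Zap70, Cd5 and Cd4 lay between 27.4 and 39.6. The T cell sums were lower than the B cell sums in each of the 12 iWAT libraries, with 0.151 to 0.546 CPM of T cell genes per CPM of B cell genes, but these sums are over different genes and are not scaled by length. The same ratio ran from 0.123 to 0.869 in the 9 eWAT libraries and from 0.273 to 1.26 in the 8 iBAT libraries with more than 3 counts for each role, so the depots overlapped.

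Cd3g (chr9:44969572-44980431), a chain of the T cell receptor complex, had 117, 209, 85.5 and 57.3 CPM at day 0, then 55.6, 185 and 197 at day 2, and 74, 102, 89.3, 26.5 and 132 at day 4 in iWAT. Its lowest, median and highest levels were 0, 0.445 and 6.06 CPM over iBAT and 0.487, 2.69 and 5.04 over eWAT. The lowest iWAT library, iWAT553, remained above every library of the other depots. At day 0 the log2 difference was 5.39 from both, with an SE of 0.9 and an adjusted p of 0.000122 from iBAT, and an SE of 0.89 and an adjusted p of 0.000244 from eWAT.

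Cd3d and Cd3e, the neighbouring chains of the same complex on chromosome 9, ran from 15.3 to 114 and from 10 to 182 CPM in iWAT. Neither passed 2.29 CPM in eWAT, and in iBAT Cd3d reached 2.12 CPM and Cd3e 4.76 CPM, the latter in iBAT539. Cd3e was high in iWAT516 and iWAT517, at 182 and 169.5 CPM, and at 69.5 or less in the other 10 iWAT libraries, and these 2 libraries were also the highest of day 0 for Cd5, Zap70 and Cd2.

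Cd2 (chr3:101275908-101287939), an adhesion receptor of T and NK cells, had 105, 299, 94.4 and 34.3 CPM at day 0, 41, 67.8 and 60.1 at day 2, and 48.3, 87.2, 86.5, 41.6 and 84.4 at day 4 in iWAT. In iBAT its lowest, median and highest levels were 0, 0.297 and 3.67 and in eWAT 0.2, 1.49 and 5.88 CPM. The library iWAT517 stood far above the other 11. Day 0 differences were 6.06 (SE 0.97, adjusted p = 7.82e-05) from iBAT and 6.29 (SE 0.97, adjusted p = 0.000119) from eWAT.

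Zap70 (chr1:36761798-36782821), the kinase that binds the activated Cd3 chains, had 142, 91.3, 88.4 and 45.2 CPM at day 0, 57.9, 134 and 127 at day 2, and 36.2, 73, 76.5, 33.3 and 116 at day 4. In iBAT it ran from 0 to 5.15 with a median of 1.11, and in eWAT from 0.882 to 21.2 with a median of 2.34. The highest eWAT value, in eWAT551, was apart from the other 8 and the closest of any eWAT library to iWAT. The day 0 difference was 5.16 from both depots (SE 0.9, adjusted p = 0.000183 from iBAT; SE 0.89, adjusted p = 0.00036 from eWAT).

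Cd4 (chr6:124864693-124888247), the co-receptor of helper T cells that some myeloid cells also carry, had 137, 92.1, 96.1 and 32.5 CPM at day 0, 39, 93 and 73 at day 2, and 33, 66.3, 168, 58.2 and 133 at day 4. Its lowest, median and highest levels were 0, 0.54 and 3.89 CPM in iBAT and 0.246, 0.801 and 2.94 in eWAT. The groups of iWAT and of the other depots did not overlap, and at day 0 the differences were 6.18 (SE 1.0, adjusted p = 8.01e-05) and 6.88 (SE 1.03, adjusted p = 7.14e-05).

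Cd8b1, the beta chain of the co-receptor of cytotoxic T cells, is given by library because its values, once seen, stood out in their spread within iWAT. It had 403, 178, 118 and 2.95 CPM at day 0, 11.6, 37.7 and 8.92 at day 2, and 5.6, 61.1, 50.5, 46.9 and 41.4 at day 4. Its highest library was 136.6 times its lowest, and the SD of its log2 level within groups was 1.98, the largest of the 23 genes compared.

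Set against the summed counts of Cd3d, Cd3e and Cd3g, Cd8b1 had 104 counts per 100 in iWAT516, 36.1 in iWAT517, 87.6 in iWAT518 and 2.3 in iWAT522. The 3 libraries of day 2 had 6.31, 12.8 and 2.58, and the 4 of day 4 with at least 100 Cd3 counts had 3.01, 48, 27 and 17. Cd4 per 100 Cd3 counts ran only from 17.8 to 89.9. The order of the libraries was not the same for both: iWAT551 was the highest for Cd4 and iWAT516 for Cd8b1. These ratios are of counts and are not scaled by length.

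**Figure D3:**
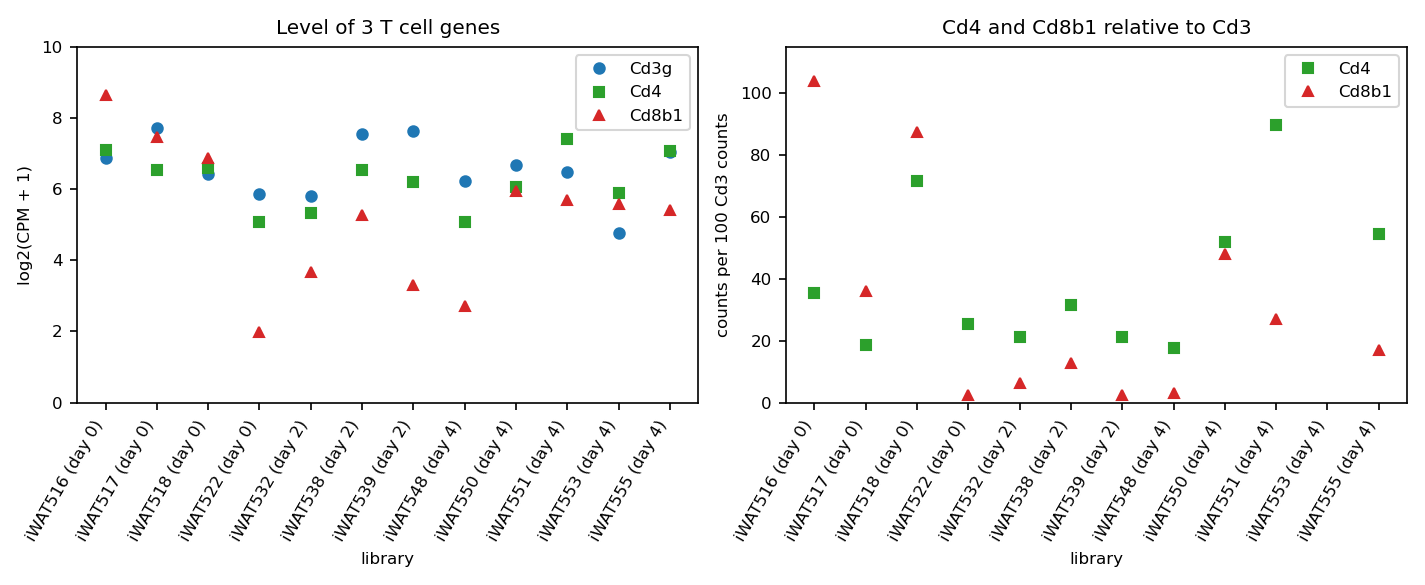
Left, log2(CPM + 1) of Cd3g, Cd4 and Cd8b1 in each of the 12 iWAT libraries. Right, counts of Cd4 and Cd8b1 per 100 counts of Cd3d, Cd3e and Cd3g together, not drawn for iWAT553, which had under 100 Cd3 counts. Cd8b1 spans 2.3 to 104 and Cd4 17.8 to 89.9.

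Cd5, a T cell receptor modulator also found on B-1 cells, ran from 21.9 to 187 CPM in iWAT and reached 2.04 in iBAT and 2.06 in eWAT. Lat, an adaptor of the T cell receptor, was counted 51 times, all in iWAT, in 10 of its 12 libraries. Its mean at day 0 was at least 8.45-fold higher than in iBAT and at least 12.8-fold higher than in eWAT, with each level of 0 set at 3 counts over the group. The day 0 levels in iWAT were 7.88, 1.46, 0.593 and 1.18 CPM, so these folds rest largely on iWAT516, and Lat was not tested. Lck, the kinase that acts upstream of Zap70, was near 0 in all depots in the 1 transcript row that maps to it, with 2 counts in iWAT, 1 in iBAT and none in eWAT. That row is a RefSeq transcript of 2111 bases, and its counts did not follow those of the other T cell genes.

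The homing and node genes fall into receptors on lymphocytes (Ccr7, Cxcr5), the signal that keeps stroma (Ltb), chemokines of stroma (Ccl19, Cxcl13), the venule adhesion molecule Madcam1, and Marco, a scavenger receptor of medullary macrophages. Per length, Ccl19 (221 CPM per kb), Ltb (215) and Cxcl13 (158) were highest in iWAT, then Ccr7 (101), Marco (90.9), Cxcr5 (16.3) and Madcam1 (1.86).

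Ccr7 (chr11:99144199-99155077) had 491, 251, 214 and 145 CPM at day 0 in iWAT, 302, 146 and 222 at day 2, and 155, 88.8, 134, 79.4 and 176 at day 4. Its range was 0 to 4.2 CPM in iBAT, with a median of 1.86, and 0.504 to 2.59 in eWAT, with a median of 1.47. All 12 iWAT libraries were above every other library. The day 0 differences were 6.81 (SE 0.87, adjusted p = 6.23e-06) and 7.31 (SE 0.88, adjusted p = 6.23e-06).

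Cxcr5 (chr9:44511787-44526444) had nearly equal levels at day 0 in iWAT, at 30.1, 35.6, 33.2 and 35.4 CPM. They spread to 34.3, 75.9 and 55.9 at day 2 and to 16.8, 13.9, 76.5, 19.7 and 84.4 at day 4, where 2 libraries (iWAT551 and iWAT555) were high and 3 low. In iBAT its highest level was 1.23 CPM, with a median of 0, and in eWAT it ran from 0 to 1.41 with a median of 0.245. With 429 counts in iWAT at day 0 against 1 in iBAT and 3 in eWAT, the ratios of summed rates were 307 (95% exact counting interval 54.9 to 12200) and 155 (52.6 to 753), and the fitted differences were called at adjusted p = 7.21e-05 and 0.000158.

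Ltb (chr17:35194507-35196305) had 432, 119, 236 and 316 CPM at day 0, 258, 213 and 318 at day 2, and 196, 158, 273, 61.3 and 417 at day 4 in iWAT. Levels in iBAT ran from 0 to 3.27, with a median of 1.47, and in eWAT from 0.252 to 5.04, with a median of 3.21. The lowest iWAT library, iWAT553, remained above all of them. Day 0 differences were 6.87 (SE 0.88, adjusted p = 6.25e-06) and 6.22 (SE 0.84, adjusted p = 2.31e-05).

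Ccl19 (chr4:42754525-42756365) had 156, 474, 113 and 41.6 CPM at day 0, 116, 180 and 202 at day 2, and 97.8, 156, 281, 71.9 and 85.2 at day 4 in iWAT. In iBAT it was counted in 1 library only, at 0.467 CPM, and at day 0 it was at least 597-fold higher in iWAT than in iBAT (adjusted p = 0.000127). eWAT was uneven, with a lowest, median and highest level of 0.294, 1.48 and 18.4 CPM: eWAT518 had 18.4 and eWAT532 18.1 CPM, and the other 7 at most 4.35. The difference of iWAT from eWAT at day 0 was 4.86 (SE 1.18, adjusted p = 0.0119), and the call was lost without eWAT516 (adjusted p = 0.0708) or without eWAT517 (adjusted p = 0.0638). Ccl19 has near-identical copies in the mouse genome, between which the authors' counting could split reads, so its counts are uncertain.

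Cxcl13 (chr5:95956939-95961068) had 78.5, 288, 131 and 128 CPM at day 0, 103, 255 and 218 at day 2, and 139, 49.8, 392, 72.6 and 325 at day 4. Of the homing and node genes it had the highest level in iBAT, with a lowest, median and highest of 0, 4.96 and 10.4 CPM, and in eWAT these were 0.504, 7.65 and 17.4. The libraries of iWAT did not overlap those of the other depots. Its differences at day 0 were 5.61 (SE 1.07, adjusted p = 0.000503) and 5.03 (SE 1.02, adjusted p = 0.00197).

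Marco (chr1:120474538-120505024) was uneven within iWAT, at 29, 75.5, 389.9 and 333 CPM at day 0, 98.1, 309 and 358 at day 2, and 78.7, 15.3, 227, 92.3 and 95.1 at day 4. Its highest level was 25.4 times its lowest. The lowest iWAT library, at 15.3 CPM, lay just below the highest of eWAT, at 16 CPM in eWAT539, so that over all days the depots met. In eWAT its median was 3.2, with 0.252 as the lowest, and in iBAT the highest was 1.56 and the median 0. At day 0 it had 2197 counts in iWAT against 1 in iBAT, a ratio of summed rates of 1570 (95% exact counting interval 282 to 62200), called at adjusted p = 4.54e-05, and the difference from eWAT was 6.05 (SE 1.17, adjusted p = 0.00122). Other tissue macrophages can express Marco.

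Madcam1, the adhesion molecule of mucosal venules and of some node stroma, was low, between 0.233 and 6.79 CPM in the 12 iWAT libraries, with 11 counts in eWAT and 1 in iBAT. It passed the test against iBAT at days 0 and 2 and not at day 4 (adjusted p = 0.117). Against eWAT it missed the threshold at days 0, 2 and 4, at adjusted p = 0.0969, 0.0875 and 0.276, with log2 differences between 2.19 and 3.75.

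Coro1a (chr7:126699774-126704816), an actin regulator of all leukocytes, had 385, 1147, 215 and 530.1 CPM at day 0, 475, 654 and 687 at day 2, and 530.3, 212, 437, 272 and 1359 at day 4 in iWAT. Its lowest, median and highest levels were 0, 11.6 and 23.6 CPM in iBAT and 14.4, 21 and 48.6 in eWAT. It was counted in every library of eWAT and, at 2.72 CPM or more, in 9 of 10 of iBAT. Its day 0 differences were 5.0 (SE 0.93, adjusted p = 0.000386) from iBAT and 4.46 (SE 0.9, adjusted p = 0.00181) from eWAT.

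**Figure D4:**
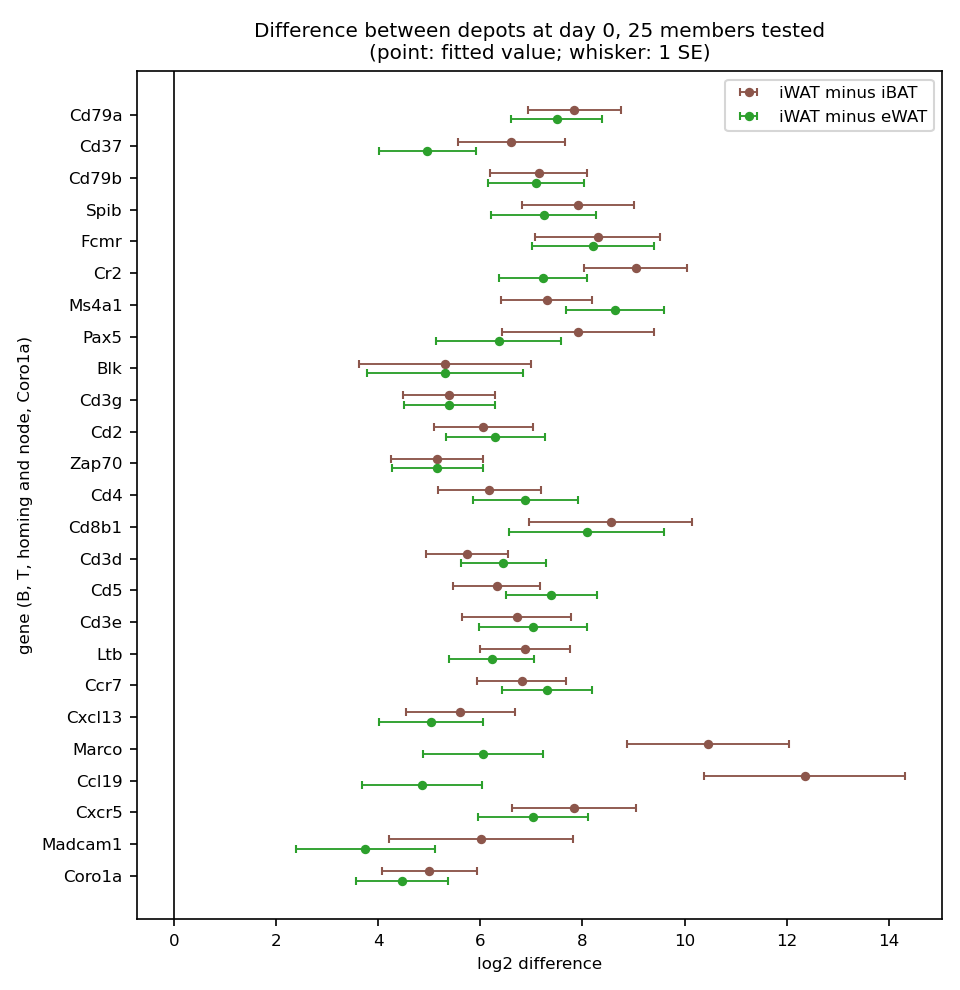
Fitted log2 difference of iWAT from iBAT and from eWAT at day 0 for the 25 genes tested, with 1 SE as the whisker. All points lie above 0, from 3.75 (Madcam1 from eWAT) to 12.35 (Ccl19 from iBAT), where the fitted value rests on no count in iBAT and is no bound.

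Between eWAT and iBAT few of the 25 genes were called. At day 0 only Ccl19 was called higher in eWAT than in iBAT, where 5.21% of all genes were, at least 20.7-fold higher (adjusted p = 0.0227). Its highest eWAT library was eWAT518, at 18.4 CPM, without which the call was lost (adjusted p = 0.206), as it was without any 1 of the 3 iBAT libraries. At day 2 it was again the only one, against 10.5% of all genes, at least 16-fold higher (adjusted p = 0.0166), and there the call was lost without eWAT532 (adjusted p = 0.138).

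At day 4, 4 genes passed the test with a higher level in eWAT, against 11.4% of all genes. Zap70 had 3.44, 21.2 and 1.97 CPM in eWAT548, eWAT551 and eWAT553, against 0, 0 and 1.4 in iBAT548, iBAT550 and iBAT555, a ratio of summed rates of 20.3 on 3 iBAT counts (lower limit of the 95% exact counting interval 6.77, adjusted p = 0.00829). Cd79b had 11.2, 1.95 and 3.94 CPM against 0, 0.612 and 1.87 (log2 difference 2.84, SE 0.98, adjusted p = 0.0435). For Marco, with 2.75, 3.41 and 13.3 CPM against 0, 0.612 and 0, the ratio on 1 iBAT count was 44.3 (7.73 to 1770, adjusted p = 0.0289), and Fcmr, with no count in iBAT, was at least 5.61-fold higher (adjusted p = 0.0413). In each case 1 of the 3 eWAT libraries stood well above the other 2. Without iBAT548, whose missing values are not shown to be 0, none of the 4 passed, with adjusted p between 0.0655 for Zap70 and 0.218 for Cd79b. Each call was also lost without the eWAT library where it was highest (0.127 for Zap70, 0.215 for Fcmr, 0.226 for Cd79b and 0.116 for Marco).

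Cold changed none of the 27 genes past the threshold in any depot. Of the 25 tested in iWAT over 9574 genes, the 12 in eWAT over 10043 and the 4 in iBAT over 8270, edgeR's quasi-likelihood test called 0 in each of the 9 day comparisons, and DESeq2 also called 0. Among all genes edgeR called 0.157% in iBAT at day 2 against day 0 and 0% in the other 8, so that few genes of any kind were called. At an unadjusted p under 0.05 there were 3 of the 25 in iWAT at day 2 against day 0, 5 at day 4 against day 0 and 1 at day 4 against day 2, where 1020, 793 and 501 of all genes were. In eWAT there were 0, 0 and 1 of the 12, where 106, 277 and 436 of all genes were. In iBAT there were 0 of the 4 in each, where 1022, 581 and 263 of all genes were. With so few genes tested, these counts do not set the members apart from all genes. By DESeq2 the iWAT counts at that p were 4, 5 and 1.

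The 5 in iWAT at day 4 against day 0 had negative differences: Cd3e -1.85 (SE 0.63, adjusted p = 0.491), Ccr7 -1.10 (SE 0.4, adjusted p = 0.504), Cd5 -1.08 (SE 0.44, adjusted p = 0.556), Cd37 -1.08 (SE 0.44, adjusted p = 0.556) and Cd8b1 -2.06 (SE 0.88, adjusted p = 0.566). For each of them the libraries of the 2 days overlapped. At day 2 the 3 were Cd8b1 at -3.19 (SE 1.11, adjusted p = 0.39), Cd37 at -1.26 (SE 0.53, adjusted p = 0.453) and Cd2 at -1.26 (SE 0.59, adjusted p = 0.468), again with overlap.

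At day 4, 20 of the 25 differences from day 0 were negative and 4 positive, with a median of -0.44 against -0.01 for all genes, and at day 2, 13 were, with a median of -0.07 against -0.08. By role the day 4 medians were -0.44 for the B cell genes, -0.68 for the T cell genes and -0.3 for the homing and node genes. The B cell sum of iWAT was 2623 ± 138 CPM (SD, n = 3) at day 2 and 1709 ± 808 (n = 5) at day 4, that of T cells 577 ± 175 and 477 ± 162, and that of the homing and node genes 1159 ± 232 and 828 ± 437. At day 4 the B cell and the homing and node sums of 3 libraries (iWAT548, iWAT550 and iWAT553) lay below those of all 7 earlier libraries, and those of the other 2 (iWAT551 and iWAT555) did not. The T cell sums did not split in this way: 4 of the 5 lay within the range of the earlier days, and only that of iWAT553, at 272 CPM, was below it. The adipocyte genes summed to 46090, 25700 and 54660 CPM in the 3 and to 36910 and 7927 in the 2, against 13860 to 23920 at day 0, and their part in the day 4 levels was not tested.

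Among the 25 genes tested in iWAT, Cd79a at day 4 against day 2 was the only one whose libraries did not overlap between days: 392 to 1101 CPM against 1388 to 1550, a difference of -1.0 (SE 0.43, adjusted p = 0.779). The share of all genes without such overlap was not counted, so this does not set Cd79a apart from other genes. Zap70 in eWAT at day 4 against day 2 had 2.26 (SE 0.87, adjusted p = 0.823), carried by eWAT551. In iBAT the differences of Cd79a, Cd37, Cxcl13 and Coro1a lay between -1.12 and 1.29, with SEs of 0.94 or more against day 0.

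**Figure D5:**
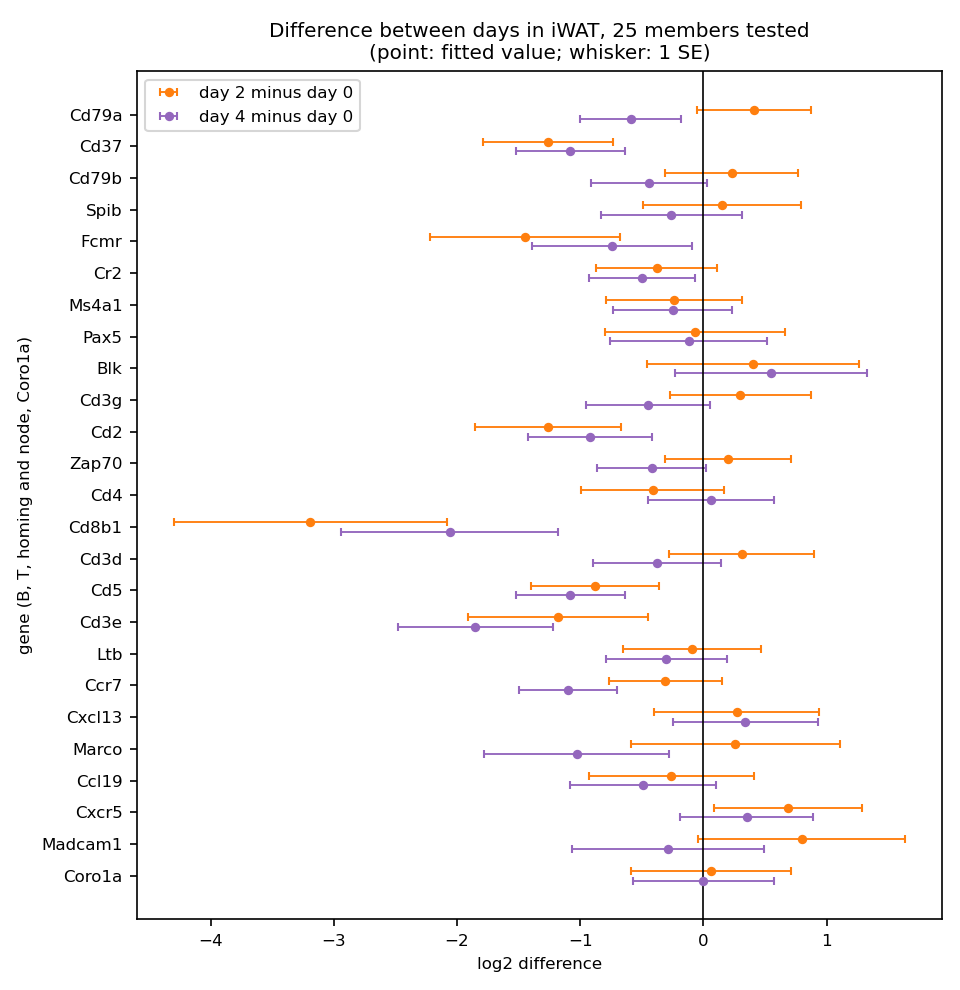
Fitted log2 difference of day 2 and of day 4 from day 0 in iWAT for the 25 genes tested, with 1 SE as the whisker. The values run from -3.19 (Cd8b1 at day 2) to 0.8 (Madcam1 at day 2), and none passed the adjusted threshold.

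Within iWAT many of the genes rose and fell together over libraries, but not as a single block. How common this is among all genes was not counted, so it does not set the members apart. Of the 23 with a mean of at least 5 CPM, 18 were above their own median over the 12 libraries in iWAT516, 17 in iWAT517 and 17 in iWAT555, against 2 in iWAT553 and 4 in iWAT550. T cell genes were highest in iWAT517, where their median lay 1.47 (log2) above the gene's own median, and B cell genes in iWAT516, at 0.818. The homing and node genes were highest in iWAT551, at 1.08, a library where the B and T cell genes were near their medians (0.149 and 0.0181).

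The SD of the log2 level within groups had a median of 0.858 over the 23 genes and 0.653 over all 8167 genes with such levels in iWAT. It was 0.735 for the B cell genes, 0.868 for the T cell genes and 0.929 for the homing and node genes, and ran from 0.555 (Cd79a) to 1.98 (Cd8b1). Across the 12 libraries, Pearson's r of a gene with the mean of the other members was highest for Spib (0.844), Cd3d (0.835) and Cr2 (0.786), and lowest for Marco (0.11) and Cd8b1 (0.289). These values describe 12 libraries, which differ in day and depth, and have no test.

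The 10 genes outside the list whose level was most like the members' mean over the 12 iWAT libraries, of 8144 with at least 5 CPM, were Ifi47 and Laptm5 (r = 0.93), Cxcl16 (0.928), Gm8369 and H2-Ob (0.927), Ap1s3 and Pgap1 (0.926), Treml2 (0.924), Trim59 (0.922) and Apbb1ip (0.918). Of these, H2-Ob, a chain that modulates antigen loading in B cells, averaged 416 CPM in iWAT, 2.33 in iBAT and 5.96 in eWAT. Laptm5, a lysosomal protein of blood cells, averaged 374, 22.5 and 72.3 CPM, while Pgap1 averaged 17.1 in iWAT and 17.2 in eWAT.

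Other lists of leukocyte genes, of which a part is also expressed by fat and its vessels, were read beside the members at day 0, where 9.77% of all genes were higher in iWAT against iBAT and 5.02% against eWAT. Of 16 further B cell genes tested, 13 were above iBAT in iWAT and 10 above eWAT. Siglecg, an inhibitory receptor of B cells, had 738 ± 122 CPM (SD, n = 4) in iWAT, 6.9 ± 2.92 in iBAT and 13.2 ± 3.32 in eWAT (adjusted p = 2.37e-06 and 1.73e-05). Tnfrsf13c, the BAFF receptor, was also higher, and Blnk was not (adjusted p = 0.0757 and 0.791). Of 20 further T cell genes, 18 and 19 were higher, Thy1, Il7r and Rasgrp1 among them, and of 4 NK and cytotoxic genes 3 and 3 were. The chemokine Ccl5 had 399.5 ± 258 CPM in iWAT, 6.59 ± 3.84 in iBAT and 7.88 ± 5.09 in eWAT. Gzma was not called (adjusted p = 0.543 and 0.706).

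The list of node stroma, vessel and sinus genes was less even, with 10 of 14 higher in iWAT than in iBAT and 3 of 14 higher than in eWAT. Glycam1, an L-selectin ligand that high endothelial venules make and that the mammary gland also makes, had no count in any of the 19 iBAT and eWAT libraries and between 63.5 (iWAT550) and 1233 CPM (iWAT532) in iWAT. At day 0 it was at least 946-fold higher in iWAT than in iBAT and at least 1430-fold higher than in eWAT (adjusted p = 1.54e-05 and 2.41e-05). Its levels, given by library after they were seen, were 212, 374, 323 and 334 CPM at day 0, 1233, 709 and 1196 at day 2, and 924, 63.5, 362, 215 and 499.7 at day 4. The 3 libraries of day 2 were above the 4 of day 0, and the difference did not pass the test, since no gene of this list was called between days in iWAT. How many of all genes lacked overlap between these days was not counted, so this does not set Glycam1 apart. Cd209b, of marginal and subcapsular macrophages, and Timd4, of resident macrophages, were higher too, and Ltbr, the lymphotoxin receptor that fat cells and stroma also carry, was not (adjusted p = 0.91 and 0.734).

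Dendritic cell genes were higher in 9 of 11 cases against iBAT and 7 of 11 against eWAT. Ccl22 had 130 ± 106 CPM in iWAT, with 3 counts in iBAT, and Irf8 and Itgax were also called, while Fscn1 was not (adjusted p = 0.647 and 0.506). All 13 tested genes of a general list of blood cell genes, such as Laptm5, Arhgdib and Rac2, were higher in iWAT against each depot. Of 11 macrophage genes, 1 was higher than in iBAT (Mpeg1, adjusted p = 0.0281) and 0 were higher than in eWAT, shares no larger than those of all genes, and C1qb was not called against iBAT (adjusted p = 0.166). Cell cycle genes were higher in 11 of 15 and 6 of 15 cases, Mki67 and Cdk1 in both.

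Lists of other tissues also differed between the depots at day 0. Skeletal muscle genes were higher in iWAT than in eWAT for 7 of 12 tested and lower than in iBAT for 10 of 12, and brown adipocyte genes for 4 of 6 and 5 of 6. Epididymis and testis genes were higher than in iBAT for 4 of 12 and lower than in eWAT for 6 of 12. Over all 11041 genes, 897 were lower in iWAT than in iBAT and 309 lower than in eWAT. The part of these tissues in the levels of the lymphocyte genes was not tested. None of the 7 adipocyte genes tested was called between iWAT and either depot. Fabp4, the fatty acid carrier, had 13020 ± 5005 CPM in iWAT, 8787 ± 3423 in iBAT and 22810 ± 13970 in eWAT (adjusted p = 0.527 and 0.458). No gene of these lists was called between days in iWAT by edgeR.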

How the data were processed

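Total RNA (1 µg per library) of 3 fat depots was sequenced on an Illumina instrument, per the labels' protocols. The values are the counts of reads per RefSeq transcript that the authors deposited in 1 table per depot. The submitters' processing notes name cutadapt, BWA and mm10, and the counting step, its handling of strand and its annotation are not given in the sources used here. A missing count was read as 0. Of 17334 accessions, 17030 received a symbol from RefSeq, 105 from GENCODE M21 and 199 none. CPM values are counts per 1000000 of the library's TMM effective size over all 31 libraries, and CPM per kb divides them by transcript length.

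Tests were edgeR 4.0.16 quasi-likelihood F-tests (R 4.3.3, limma 3.58.1; TMM, filterByExpr with a minimum count of 10 and a minimum total of 15, robust), two-sided, with Benjamini-Hochberg adjustment over all genes and a threshold of 0.05. Depots were compared within a day in 1 fit of all 9 groups, and days within a depot in a fit of that depot. The script was tested on simulated data. The SE is the log2 difference over the square root of F. A group with no count was set at a floor of 3 counts over the group, and one with 1 to 3 counts has a ratio with an exact 95% interval, both covering counting error only.

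Alternatives were RLE size factors, no filter, DESeq2 1.42.0, rows of a symbol summed, a library score as covariate, a replicate block, iBAT539 and iBAT548 left out, and each library left out. The genes and lists were chosen with earlier results of these data known. Values by library are given for the 4 B cell, 4 T cell and 6 node genes with the highest mean CPM and for Coro1a, and from other lists up to 3 called genes with the highest mean CPM and 1 not called. A gene of the further B cell list is not reported here by name.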

Additional observations from a re-analysis of the deposited data

Results flagged for a closer look

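The genes given by library and the sums of the 3 roles were examined in each group of 4 or 5 libraries. In 6 of these 54 cases the highest or lowest library lay farther from its nearest neighbour than Dixon's 95% limit allows. Chance gives about 1 in 20 only for independent, normal values, which these are not shown to be, so no excess over chance is shown. Of these, 2 are in iWAT555, the day 4 library with the highest epididymis and testis gene sum of its depot: Cd79b at 533.5 CPM and Coro1a at 1359 CPM. In iWAT516 Spib stood at 430.7 CPM, above the other 3 libraries of day 0. The other 3 are at day 2 in iBAT, at a few counts each: Cd79a at 2.08 CPM in iBAT534, and Cd3g and Cd2, both at 1.53 CPM in iBAT532. For Cd3g and Cd2 the rest of that group had no count, so any count would have been flagged.

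For 3 genes all libraries of one depot lay on one side of their day 0 mean and all libraries of another on the opposite side, on the log2(CPM + 1) scale. A move of any size counted. Coro1a and Cxcr5 in iWAT532 and Cd79b in eWAT551 lay barely above the day 0 mean, so no rise in iWAT or eWAT is shown. The share of all genes that do so was not counted. Cd79b at day 4 changed by -1.78 in iBAT relative to its change in eWAT. Its iBAT side rests on 19 counts at day 0 and 5 at day 4, and includes iBAT548, whose missing values are not shown to be 0. Relative to iWAT at day 2, the change in iBAT was -0.76 for Cxcr5 and -1.52 for Coro1a. For Cxcr5 the iBAT side rests on 1 count in 1 library of day 0 against 0 counts in all 4 libraries of day 2, so that no fall in iBAT can be read from it. Coro1a had 157 counts in the 3 iBAT libraries of day 0 and 53 in the 4 of day 2, which differ in depth. Its log2 difference within iBAT, -1.12, was not called (edgeR quasi-likelihood F-test, adjusted p = 0.65). Within iWAT it was 0.06 (same test, adjusted p = 0.975). The differences in change between depots were not tested.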

How the results depend on the processing

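The counts of the 25 genes higher in iWAT kept within 1.5 times of their reported values under every alternative run: 23 to 25 against iBAT and 22 to 25 against eWAT, and 23 to 25 and 20 to 24 with 1 library left out. No log2 difference reversed, and no gene was called between days under any of them. Over all genes, edgeR called 11 higher and 2 lower in iBAT at day 2 against day 0 and 0 in the other day comparisons, where DESeq2 called 185 higher and 121 lower in the first, 56 and 27 in iBAT at day 4, and in iWAT 54 and 57 at day 2 and 37 and 6 at day 4, all against day 0. The counts for eWAT against iBAT moved. DESeq2 gave 2 at day 0, 4 at day 2 and 7 at day 4, where no low-count filter gave 2, the library score as a covariate 7, and leaving out iBAT539 and iBAT548 together 0. With 1 library left out they ran from 0 to 1 at day 0 (0 without iBAT516, iBAT517, iBAT518 or eWAT518), from 1 to 3 at day 2 (3 without iBAT532, 2 without iBAT535 or eWAT538) and from 0 to 3 at day 4 (0 without iBAT548, 2 without eWAT551); the causes were not tested. Same-numbered libraries of different depots did not deviate together (r over 0.1 in 6 of 23 pairs, from -0.439 to 0.364), so the pairing was not used in the reported tests; the labels do not say whether a number is a mouse. With it as a replicate block, iWAT was higher than iBAT for 23, 24 and 23 genes at days 0, 2 and 4 and than eWAT for 23, 22 and 22, and eWAT than iBAT for 0, 1 and 3. Days could not be paired within a depot, since no label number recurs between them. RLE size factors moved the median of all genes from 0.18 to 0.34 for iWAT against iBAT and from 0.18 to 0.3 for eWAT against iBAT at day 0. In iBAT most of these genes have under 50 counts in all, which limits what can be seen there.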
